A study of Mus musculus with 4 samples.

Results

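The 10 genes described here encode receptors and ligands of the inhibitory immune checkpoints, or the CD28 family ligands that one of these receptors binds. They are the receptor genes Pdcd1, Ctla4, Lag3, Havcr2 and Tigit and the ligand genes Cd274, Pdcd1lg2, Cd80, Cd86 and Cd276, chosen by symbol from 18220 genes in the 2 deposited expression tables. All 10 were listed in both the malignant and the non-malignant table, which share 16121 genes. The cells came from hind limb tumors of a mouse allograft sarcoma model and were profiled one by one with droplet sequencing of RNA 3′ ends, which counts each RNA molecule once through a unique molecular identifier (UMI). The 2 vehicle mice received PBS by intraperitoneal injection, and the 2 digoxin mice received 2 mg/kg digoxin, a cardiac glycoside, made up in DMSO and diluted in PBS. Injections were given every 24 h, and tumors were taken after 4 doses. The labels give all 4 samples the background strain 129/SvJae and the same genotype, which includes conditional (flox) Trp53 alleles, and do not say which cells carried the recombined alleles, how old the hosts were or whether hosts differed from the grafted cells. The mouse was the replicate in each comparison.

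T cells recognise antigen through their receptor, and a second set of surface proteins raises or lowers the response. CTLA-4, the product of Ctla4, competes with the activating receptor CD28 for CD80 and CD86 on antigen-presenting cells and is made constitutively by regulatory T cells. PD-1, from Pdcd1, dampens receptor signalling in activated T cells when it binds PD-L1 (Cd274) or PD-L2 (Pdcd1lg2), and PD-L1 is induced in many cell types by interferon-γ, with IRF1 among the factors that carry the signal to its promoter. LAG-3 binds MHC class II, TIM-3 (Havcr2) is found on activated T cells and on myeloid cells, TIGIT binds nectin-type ligands such as PVR, and B7-H3 (Cd276) is a B7 family member found on many non-immune and tumor cells whose receptor is not settled.

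The tables held 18963 malignant and 12648 non-malignant cells, with median depths in the 4 mice of 46799 to 57658 UMIs for malignant and 15837 to 16671 UMIs for non-malignant cells. Trp53 was at 6.56 to 7.71 mean CPM (UMIs per 1000000 UMIs of the cell, averaged over cells) in malignant cells and at 63.8 to 75.5 in non-malignant cells. Vehicle replicate 2 stood apart: Xist, the RNA of the inactive X chromosome, was at 6.09 mean CPM in its non-malignant cells against 722 to 817 in the other mice, the Y-linked Ddx3y was at 86.0 against 1.72 to 2.14, and Treg cells made up 59.1% of its T cells against 19.1% to 26.7%. Low Xist with high Ddx3y is the pattern of male cells, and the other mice had the pattern of female cells. By these genes host sex differed within the vehicle group and cannot be told apart from other differences of this mouse. The macrophages of vehicle replicate 2 were 29.0% M1 by the deposited sub-cluster, against 42.5% to 47.6%. Between 14 and 25 cell barcodes were shared by each pair of libraries. Cell types are the deposited ones, and 3 names went against marker genes. Cells named Epithelial had 888 mean CPM of the endothelial gene Cdh5 and 0.122 of Epcam, cells named Microglia had 2449 of Siglech and 1.43 of Tmem119, and cells named "Unknown T cell" had 1.03 of Trac, 285 of Xcr1 and 144 of Clec9a. These are called below by their deposited names, with "named" before them. The cells named "Unknown T cell", 8, 7, 9 and 11 in the 4 mice, are included in the levels, fits and shares given for T cells.

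**Figure D1:**
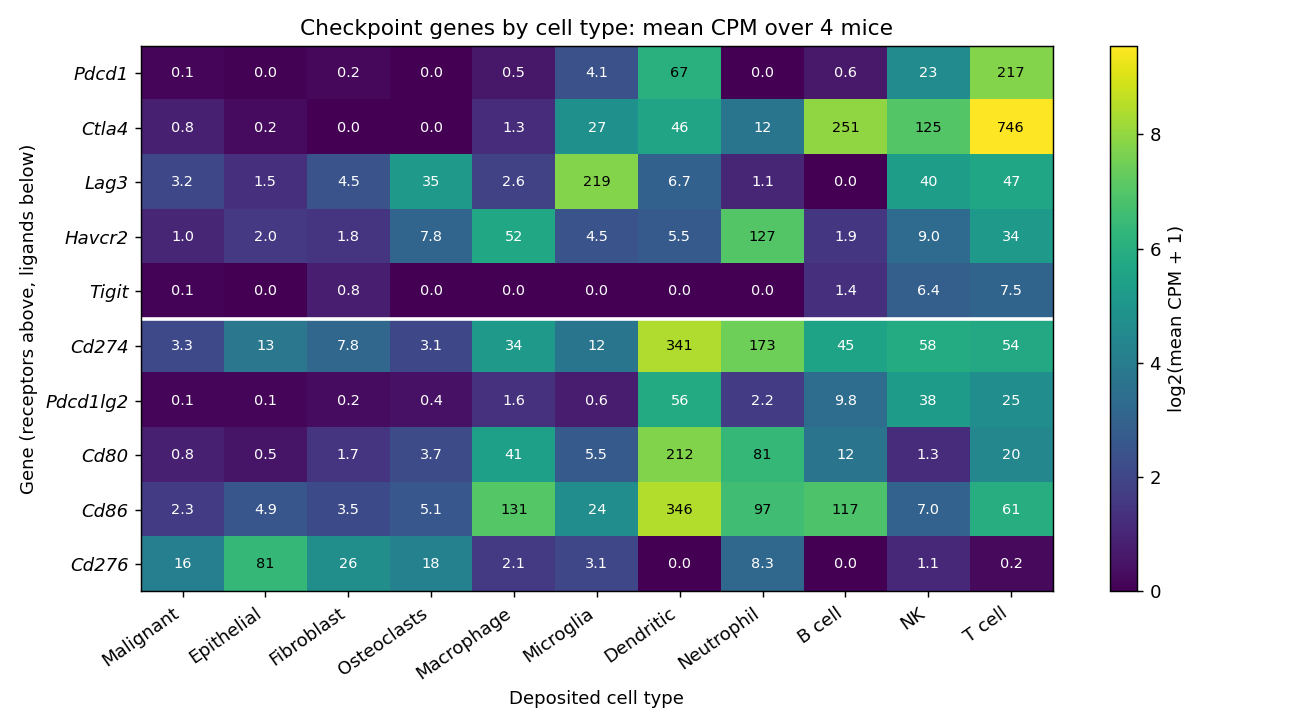
Mean CPM (number in each cell, colour on a log2 scale) of the 5 receptor genes (above the white line) and the 5 ligand genes (below it) in 11 deposited cell types (columns), averaged over 4 mice. Pdcd1 and Ctla4 peak in T cells, Lag3 in the cells named Microglia, Cd274, Cd80 and Cd86 in Dendritic cells and Cd276 in the cells named Epithelial.

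Each gene had its own order of cell types, and these orders are descriptions, without a test. Pdcd1 and Ctla4 were highest in T cells, at 217 ± 9.27 and 746 ± 344 mean CPM (SD, n = 4 mice). Lag3 was highest in the cells named Microglia, Havcr2 in Neutrophils and Tigit in T cells. Of the ligand genes, Cd274, Pdcd1lg2, Cd80 and Cd86 were all highest in Dendritic cells, and Cd276 was highest in the cells named Epithelial. Dendritic cells, Neutrophils and B cells rested on 4 to 34 cells per mouse, so their levels carry a wide counting error and were not tested. Levels are compared here within a gene across cells, because counts from RNA 3′ ends are not scaled per length and do not order different genes by protein or transcript number.

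Pdcd1 was at nearly one level in T cells of all mice. Its mean CPM in T cells was 214.3 and 209.2 with vehicle (replicate 1, then replicate 2) and 230.4 and 213.9 with digoxin, and values below keep that order. The groups overlapped, and the log2 difference, digoxin minus vehicle, was 0.07 (SE 0.145, adjusted p by limma 0.989). At least 1 UMI of Pdcd1 was seen in 253 of 579 T cells (43.7%), against 0 of 263 Osteoclasts, a type that should lack it, which allows a share of up to 1.14%. The share was 0.288% in the cells named Epithelial, 0.579% in macrophages and 3.85% in the cells named Microglia. The median depth was 7765 UMIs in T cells and 24868 in Osteoclasts. With each cell thinned to 3000 UMIs the share in T cells was 28.2%. The number of cells below that depth was 0.

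Among the T cell sub-clusters, Pdcd1 was highest in Th cells, the sub-cluster with the most Cd4. Its mean CPM in Th cells was 366 and 323 with vehicle and 434 and 484 with digoxin. In CD8 cells it was 139 and 189 with vehicle and 269 and 162 with digoxin. In NKT cells it was 210.2 and 310.5 with vehicle and 143 and 79.4 with digoxin, and in Treg cells 79.7 and 182 against 92.2 and 98.6. The digoxin mice lay above both vehicle mice in Th cells and below both in NKT cells. These sub-clusters held 8 to 58 cells per mouse other than Treg, and no test was made in them.

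Ctla4 was highest in Treg cells. In T cells its mean CPM was 481 in vehicle replicate 1 and 1251 in vehicle replicate 2, and 654 and 599 in the digoxin mice. The vehicle mouse with the most Treg cells was the high one, and both digoxin mice lay between the vehicle mice. The log2 difference was -0.31 (SE 0.335, adjusted p by limma 0.979). It was -0.998 without vehicle replicate 1 (adjusted p 8.29e-13) and 0.38 without vehicle replicate 2 (adjusted p 0.294), so the vehicle library left out set its direction. Without T cells that held at least 3 macrophage markers it was -0.53 (limma adjusted p 0.936). Within Treg cells Ctla4 was at 1212 and 1882 mean CPM with vehicle and 1654 and 1690 with digoxin, a log2 difference of 0.15 (SE 0.209, adjusted p by limma 0.990) that turned to -0.17 without vehicle replicate 1. A UMI of Ctla4 was seen in 171 of 175 Treg cells (97.7%) and, thinned to 3000 UMIs, in 90.3%. In Th cells it was at 532, 673, 528 and 364 mean CPM in the 4 mice, and in CD8 cells at 192, 216, 172 and 201. Over all non-malignant cells Ctla4 was at 39.7 and 50.2 against 37.8 and 31.4, a log2 difference of -0.36 (adjusted p by limma 0.975) that was -0.20 without vehicle replicate 2, where a change in the mix of cell types and a change per cell cannot be told apart.

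**Figure D2:**
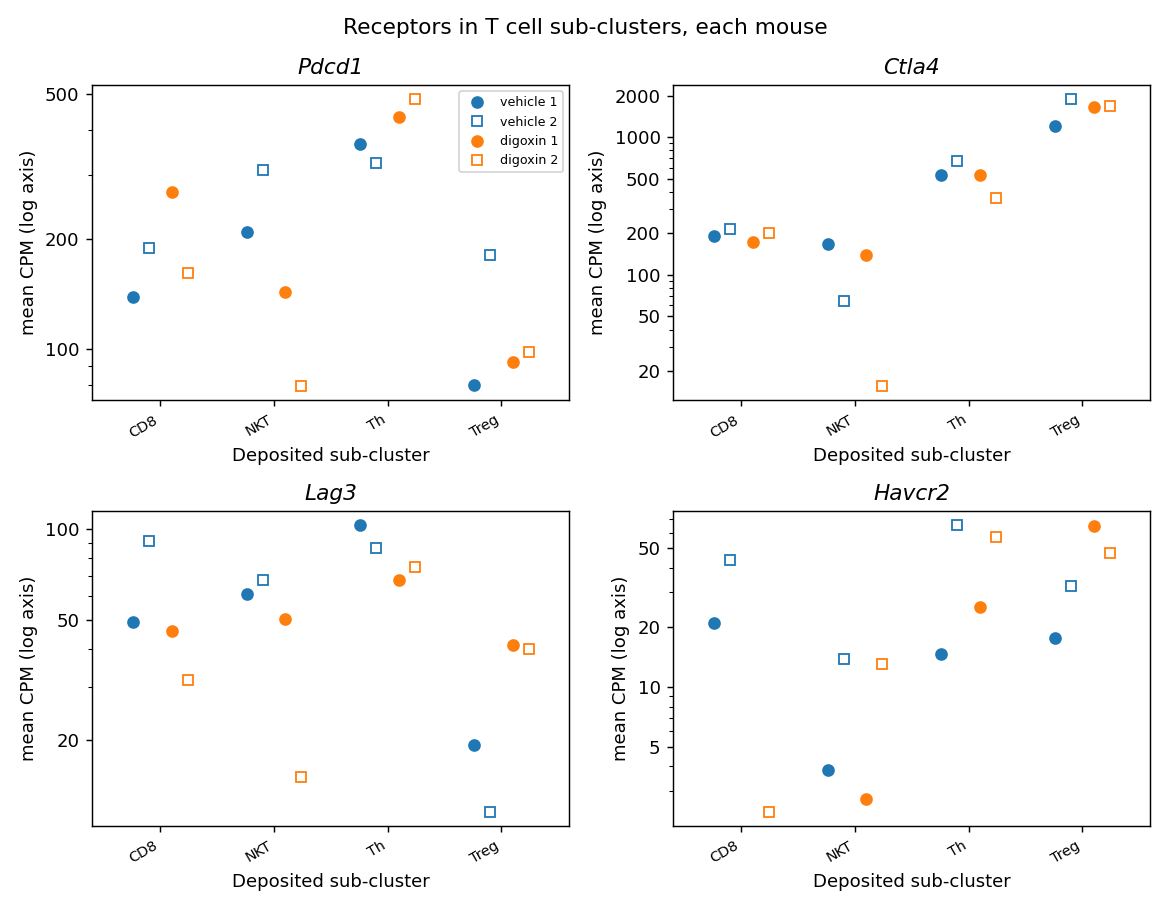
Mean CPM (log axis) of 4 receptor genes in the 4 deposited T cell sub-clusters with T cell receptor transcripts, one point per mouse (blue, vehicle; orange, digoxin; filled circles, replicate 1; open squares, replicate 2). Ctla4 is highest in Treg cells, where the lowest mouse is at 1212, Pdcd1 is highest in Th cells, and Lag3 is lowest in Treg cells of the vehicle mice; each panel has its own axis, and a value of 0 (Havcr2 in CD8 cells of digoxin replicate 1) is not drawn.

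Lag3 and Havcr2 were found in T cells and also in cells outside this lineage. In T cells Lag3 was at 62.1 and 35.8 mean CPM with vehicle and 50.6 and 41.3 with digoxin, a log2 difference of -0.05 (adjusted p by limma 0.997) that turned to 0.34 without vehicle replicate 1. It was highest in Th cells, at 103, 86.1, 67.9 and 74.8 mean CPM, where both digoxin mice were below both vehicle mice, and of the 4 sub-clusters with T cell receptor transcripts it was lowest in Treg cells in the vehicle mice. Havcr2 in T cells was at 18.2 and 43.1 against 34.3 and 41.6, a log2 difference of 0.41 (adjusted p by limma 0.979) that turned to -0.19 without vehicle replicate 1. The 35 cells named "Unknown T cell" held the most of it, at 128 and 127 mean CPM with vehicle and 148 and 112 with digoxin, with Cd86 at 94.4, 423, 98.9 and 251. Their part in the Havcr2 and Cd86 levels of T cells was not tested. Few UMIs of Tigit were seen in any type, and it was at 3.76 and 15.8 mean CPM in T cells of the vehicle mice and 6.16 and 4.22 in those of the digoxin mice, and at 3.61 to 8.14 in NK cells. Its vehicle replicate 2 value was the high one in T cells, and its level in Treg cells was 13.9 and 17.9 against 14.7 and 4.25.

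More than one receptor transcript was often seen in the same T cell, and the single genes were themselves frequent there. A UMI was seen in 43.7% of T cells for Pdcd1, 63.7% for Ctla4, 22.97% for Lag3, 20.4% for Havcr2 and 4.66% for Tigit. Whether joint detection was above what these single-gene shares give was not tested, so the shares below are not read as co-expression. Pdcd1 and Ctla4 were seen in 0.579% and 1.03% of macrophages and in 0% of Osteoclasts. Of the 5 receptor genes, at least 2 were seen in 47.5% of T cells, in 62.3% of Treg cells, in 53.9% of Th cells, in 41.0% of CD8 cells and in 29.0% of NKT cells, all mice together. Thinned to 3000 UMIs these shares were 28.5%, 35.4%, 39.5%, 20.5% and 16.1%. The same measure gave 1.84% of macrophages, 0.183% after thinning, 7.22% of Osteoclasts, 0.380% after thinning, and 29.96% of NK cells, 5.36% after thinning, which was 25.6% of NK cells with Havcr2 left out. A UMI of Havcr2 was seen in 42.0% of macrophages, and the macrophage markers summed to 1855 mean CPM in T cells and 3696 in Treg cells. Without cells that held at least 3 of these markers the unthinned share was 44.9% of T cells and 60.4% of Treg cells, and with Havcr2 left out it was 40.8% and 48.6%, both chosen after the shares were seen. Per mouse the unthinned share in Treg cells was 42.9% and 72.3% with vehicle and 72.5% and 51.4% with digoxin, so the groups overlapped. In Th cells it was 55.2% and 63.2% against 51.0% and 51.3%, so that Treg cells were below Th cells in vehicle replicate 1. NKT cells were above CD8 cells in vehicle replicate 2 (54.5% of 11 against 25% of 8 cells). Vehicle replicate 2 gave 65 of the 175 Treg cells and 19 of the 167 Th cells, so no order of the sub-clusters is read from the pooled shares.

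NK cells carried Ctla4, Lag3 and both PD-1 ligands. Ctla4 was at 164 and 96.0 mean CPM in NK cells of the vehicle mice and 118 and 124 in those of the digoxin mice, a log2 difference of -0.05 (adjusted p by limma 0.974). Cd274 was at 47.8 and 71.2 against 61.9 and 49.99, a difference of -0.07 (limma adjusted p 0.971), and Pdcd1lg2 at 42.5 and 26.2 against 36.9 and 44.6, a difference of 0.27 (adjusted p 0.874). Lag3 was at 38.2 and 39.8 against 34.1 and 47.4, a difference of 0.04 (limma adjusted p 0.981). The groups overlapped for these 4 genes, and each difference changed sign without at least 1 library, to 0.33 for Ctla4 without vehicle replicate 1, to 0.21 for Cd274 and -0.065 for Pdcd1lg2 without vehicle replicate 2 and to -0.19 for Lag3 without digoxin replicate 2. Pdcd1 was at 19.7 and 42.0 mean CPM in NK cells of the vehicle mice and 17.6 and 13.7 in those of the digoxin mice. Both digoxin mice were below both vehicle mice, with a log2 difference of -0.85 (SE 0.338, adjusted p by limma 0.754). By limma it was -1.38 without vehicle replicate 1 (adjusted p 0.0327) and -0.32 without vehicle replicate 2, and 28 of the 504 NK cells held a UMI of Pdcd1. Without the other single libraries, or on recovered UMIs, the call was not made. Cells with at least 3 of the 7 macrophage markers were 11.8% and 18.8% of NK cells with vehicle and 15.3% and 31.9% with digoxin. Without them Pdcd1 was at 22.3 and 28.9 against 17.9 and 18.6, a difference of -0.45 (limma adjusted p 0.896), and the difference for Cd274 was -0.22.

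Lag3 was far higher in the cells named Microglia than in T cells. Its mean CPM there was 214 and 313 with vehicle and 188 and 161 with digoxin. Both digoxin mice were below both vehicle mice, and the log2 difference was -0.57 (SE 0.224, adjusted p by limma 0.976). It was -0.84 without vehicle replicate 1 and -0.29 without vehicle replicate 2. A UMI was seen in 147 of 182 of these cells (80.8%) and in 45.1% after thinning to 3000 UMIs, against 4.32% and 0.288% of the cells named Epithelial. Median depths were 9764.5 and 19312 UMIs. They also held Bst2, Tcf4 and Ccr9, at 3011, 1900.1 and 591 mean CPM, genes known from plasmacytoid dendritic cells. In Osteoclasts, which carried Acp5 and Ctsk at 11381 and 9188 mean CPM, Lag3 was at 38.4 and 51.5 with vehicle and 25.5 and 22.9 with digoxin. Both digoxin mice were lower, with a log2 difference of -0.86 (SE 0.245, adjusted p by limma 0.781). The 5 osteoclast markers, none at 0, summed to 26158 and 37297 mean CPM in these cells with vehicle and 22036 and 24558 with digoxin, so both digoxin mice were lower for them too, and their part in the Lag3 level was not tested. Vehicle replicate 2 held 152 of the 263 Osteoclasts. Ctla4 in the cells named Microglia was at 6.29 and 62.0 against 27.7 and 10.998, a difference of -0.21 (adjusted p 0.994), and Cd86 at 33.0 and 4.56 against 30.1 and 29.6, a difference of 1.17 (limma adjusted p 0.980). Vehicle replicate 2 was the outlying mouse for both genes, and without it the differences turned, to 1.35 for Ctla4 and -0.14 for Cd86.

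The mean level per cell of Cd274, Pdcd1lg2, Cd80 and Cd86 was highest in Dendritic cells. They numbered 18 and 21 with vehicle and 14 and 10 with digoxin, and held 3021 mean CPM of Ccr7, the lymph node homing receptor. Cd274 was at 336 and 398 mean CPM with vehicle and 272 and 360.0 with digoxin. Cd86 was at 415 and 378 against 305 and 286, Cd80 at 169 and 303 against 269 and 107, and Pdcd1lg2 at 59.4 and 34.96 against 51.3 and 77.1. Each digoxin mouse was below both vehicle mice for Cd86, and the groups overlapped for Cd274, Cd80 and Pdcd1lg2. The 7 macrophage markers, none at 0 in all mice, summed to 1552 and 1707 mean CPM in Dendritic cells with vehicle and 114 and 688 with digoxin. That is the same order of groups as for Cd86, and the part of these markers in its level was not tested. Of the receptor genes, Pdcd1 was seen in Dendritic cells at 15.4 and 97.6 mean CPM with vehicle and 153 and 0 with digoxin, so it varied widely within each group. In Neutrophils Cd274 was at 180 and 321 with vehicle, from 11 and 5 cells, and at 77.5 and 112 with digoxin, from 34 and 23 cells. Havcr2 in Neutrophils was at 64.4 and 242 against 89.5 and 110.3. B cells numbered 18, 4, 10 and 9 and held Ctla4 at 90.0, 673, 215 and 27.0 mean CPM beside T cell transcripts such as Trac at 53.3, whose part in the Ctla4 level was not tested.

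Macrophages made up most of the non-malignant cells and held Cd86, Havcr2, Cd80 and Cd274. Cd86 was at 108 and 169 mean CPM in macrophages of the vehicle mice and 125 and 123 in those of the digoxin mice, and the digoxin mice lay between the vehicle mice. Its log2 difference was -0.12 (SE 0.204, adjusted p by limma 1.00). The M1 sub-cluster had the highest level of each of these 4 genes in each mouse. Cd86 in M1 cells was at 157 and 226 with vehicle and 156 and 163 with digoxin, in M2 cells at 68.3 and 151 against 98.0 and 94.7, and in Highly proliferative M2 cells at 64.1 and 113 against 89.3 and 91.0. The log2 differences were -0.24, -0.07 and 0.08, with limma adjusted p-values of 0.763, 1.00 and 1.00. Over all non-malignant cells the difference was -0.09 (limma adjusted p 0.984). Leaving out vehicle replicate 2 turned the Cd86 difference to 0.20 in macrophages, 0.03 in M1, 0.49 in M2 and 0.22 in non-malignant cells, and leaving out vehicle replicate 1 turned it to -0.32 in Highly proliferative M2 cells.

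Havcr2 and Cd80 were higher in macrophages of both digoxin mice, short of the threshold. Havcr2, TIM-3, was at 44.0 and 43.5 mean CPM with vehicle and 60.3 and 60.7 with digoxin. The groups did not overlap, and the log2 difference was 0.46 (SE 0.106, p 0.00420 before and 1.00 after limma's adjustment over all genes). The vehicle mice had unlike mixes, with 45.3% of macrophages in M1 in replicate 1 and 29.0% in replicate 2. Their close values are therefore not a spread between like cells. Both digoxin mice also lay above both vehicle mice in M1 cells (71.2 and 83.9 against 91.1 and 95.6), in M2 cells (17.0 and 25.9 against 29.5 and 29.8) and in Highly proliferative M2 cells (32.7 and 33.9 against 42.9 and 50.4). Vehicle replicate 2 was the higher vehicle mouse in each sub-cluster. The log2 differences were 0.27, 0.48 and 0.47, with limma adjusted p-values of 0.656, 1.00 and 1.00. Before limma's adjustment p was 0.0551, 0.0554 and 0.00900. Without vehicle replicate 1 the difference was 0.15 in M1 and 0.19 in M2 cells, and without vehicle replicate 2 it was 0.39 and 0.76. Over all non-malignant cells Havcr2 was at 36.9 and 38.2 against 52.9 and 54.3, a difference of 0.50 (adjusted p by limma 0.975), and only DESeq2 on recovered UMIs called it there, at 0.55 (adjusted p 0.0103). The 4 neutrophil markers, none at 0, summed to 56.6 and 44.8 mean CPM in macrophages with vehicle and 87.6 and 64.1 with digoxin, and to 64.0 and 60.2 against 118 and 87.9 in M1 cells, the same order of groups. They overlapped in M2 cells (51.1 and 41.5 against 64.9 and 49.9) and in Highly proliferative M2 cells (49.3 and 18.9 against 40.3 and 35.9). Neutrophils were the type with the highest Havcr2 level and the next highest Cd80 level after Dendritic cells, and the part of these markers in the macrophage levels was not tested. Neutrophils themselves held macrophage markers, at a sum of 15014 and 13273 mean CPM with vehicle and 12364 and 17631 with digoxin. Their neutrophil markers summed to 29456 and 6881 against 121043 and 24433. The part of the macrophage markers in the Neutrophil levels was not tested. In macrophages 2 of 9 checkpoint genes were higher in both digoxin mice and 1 of 9 was lower. Among all genes tested there, 13.6% had both digoxin mice above both vehicle mice and 17.3% had both below.

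Cd80 in macrophages was at 40.7 and 25.5 mean CPM with vehicle and 47.4 and 51.1 with digoxin. The values of both digoxin mice were higher, with a log2 difference of 0.60 (SE 0.215, adjusted p by limma 1.00). Without vehicle replicate 1 the limma difference was 0.92 and passed (adjusted p 0.0393), and without vehicle replicate 2 it was 0.27. In M1 cells Cd80 was at 68.0 and 51.6 against 73.9 and 83.3, a difference of 0.40 (adjusted p by limma 0.585), and in Highly proliferative M2 cells at 26.1 and 19.1 against 30.4 and 29.2, a difference of 0.40 (adjusted p 1.00). Without vehicle replicate 2 these were 0.20 and 0.18. In M2 cells, where the mean over mice was under 20 CPM, it was at 15.1 and 14.1 against 21.4 and 26.7. The order of the groups was the same in the 3 sub-clusters, which share the same mice. Over all non-malignant cells Cd80 was at 34.6 and 23.7 against 42.2 and 45.8, a difference of 0.60 (limma adjusted p 0.975) that was 0.34 without vehicle replicate 2.

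**Figure D3:**
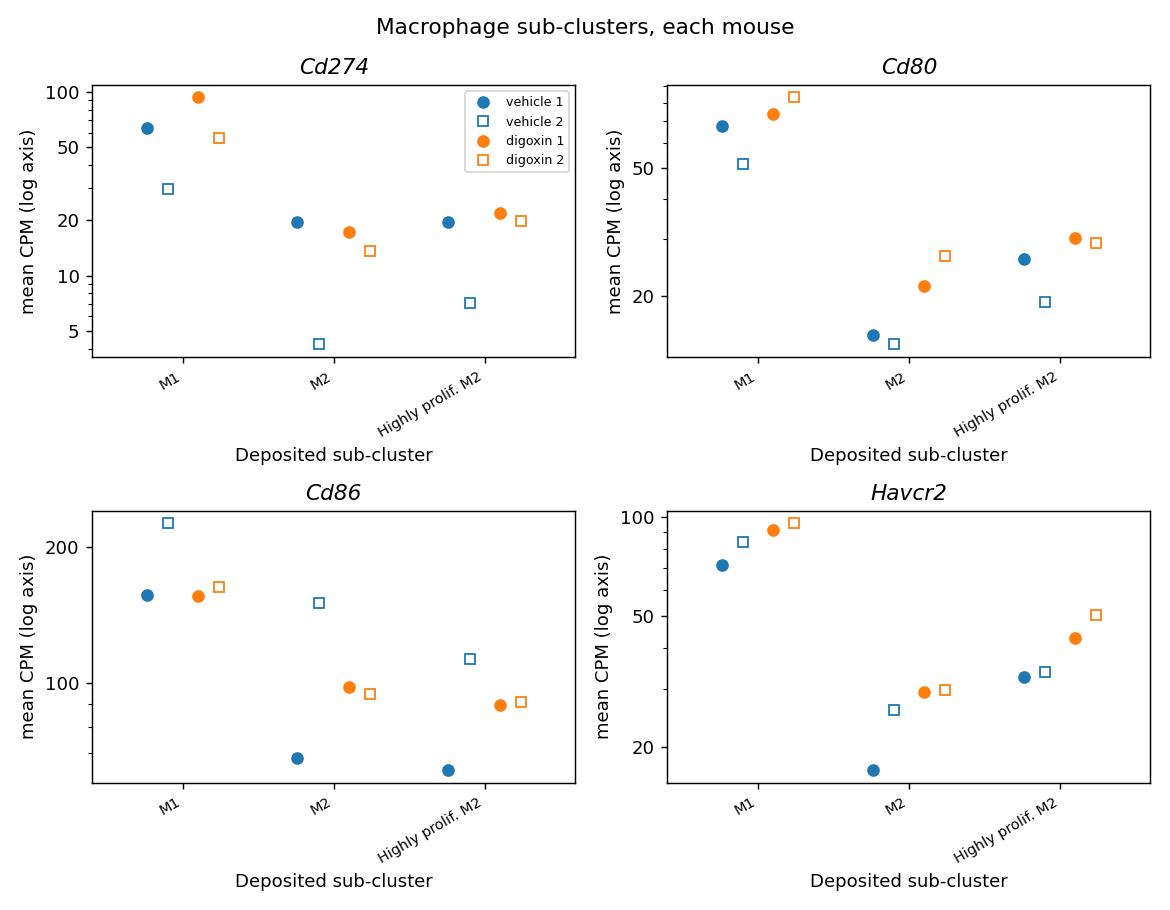
Mean CPM (log axis) of Cd274, Cd80, Cd86 and Havcr2 in the 3 deposited macrophage sub-clusters, one point per mouse (blue, vehicle; orange, digoxin; filled circles, replicate 1; open squares, replicate 2). M1 cells are highest for each gene, vehicle replicate 2 is lowest for Cd274 and highest for Cd86, and the digoxin mice are above the vehicle mice for Havcr2 and Cd80.

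Cd274, PD-L1, is a known interferon-γ target, and its promoter is shown for the letters that interferon regulatory factors bind. The stretch holds the 250 bases before the RefSeq start of Cd274 on the plus strand of chromosome 19 (GRCm38.p6, chr19:29367188-29367437), with the 1 match in capitals.
Cd274: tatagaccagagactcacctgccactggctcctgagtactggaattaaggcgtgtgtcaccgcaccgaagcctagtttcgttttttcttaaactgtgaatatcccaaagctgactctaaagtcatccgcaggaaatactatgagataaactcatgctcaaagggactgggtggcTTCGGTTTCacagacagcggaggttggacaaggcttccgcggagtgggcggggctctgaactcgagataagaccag
The capitals mark a match, on the minus strand, to GAAANNGAA, a short form of the element bound by interferon regulatory factors, and its first base lies 76 bases before the start. Both strands were searched in windows from 250 bases before to 50 after each start. GAAANNGAA was present in 8.56% of 32851 promoters, and of the 8 checkpoint genes with an entry it was present in Cd274 and Ctla4. The entries were Pdcd1, Cd274, Pdcd1lg2, Ctla4, Cd80, Havcr2, Tigit and Cd276, and Cd86 and Lag3 had none. This is a match of letters only, searched after the levels were seen.

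In macrophages and over all non-malignant cells, Cd274 differed more between the vehicle mice than between the group means. Its mean CPM in macrophages was 39.4 in vehicle replicate 1 and 11.8 in vehicle replicate 2, and 54.1 and 32.5 in the digoxin mice. Vehicle replicate 2 was the lowest mouse, and vehicle replicate 1 lay between the digoxin mice. The log2 difference was 0.92 (SE 0.514, adjusted p by limma 1.00), and 0.09 without vehicle replicate 2. In M1 cells Cd274 was at 63.4 and 29.5 against 93.5 and 55.9, a difference of 0.73 (adjusted p 0.705) that was 0.19 without vehicle replicate 2. In M2 cells it was at 19.6 and 4.22 against 17.4 and 13.6, and in Highly proliferative M2 cells at 19.6 and 7.09 against 22.04 and 19.9. With all mice the Cd274 difference was 0.66 in M2 cells (SE 0.525), 0.76 in Highly proliferative M2 cells (SE 0.375) and 1.89 in Fibroblasts (SE 0.820). None of these passed by limma, and the means over mice were under 20 CPM. The Fibroblast values rest on 22 of 203 cells with a UMI of Cd274. Without vehicle replicate 1, which leaves the low mouse as the lone vehicle mouse, the differences were 1.65, 1.44 and 2.999. Over all non-malignant cells it was at 40.5 and 16.8 against 52.2 and 34.8, a difference of 0.68 (adjusted p 0.975) that was 0.07 without vehicle replicate 2.

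Vehicle replicate 2 was also the lowest mouse for Cd274 in malignant cells, in Fibroblasts, in the cells named Epithelial or Microglia and in Treg, Th and CD8 cells, and the highest in Dendritic cells, Neutrophils, B cells, NK cells and NKT cells. In malignant cells Cd274 was at 3.80 mean CPM in vehicle replicate 1, 2.21 in vehicle replicate 2 and 3.67 and 3.47 in the digoxin mice, a log2 difference of 0.22 (SE 0.202, adjusted p by limma 1.00) that turned to -0.073 without vehicle replicate 2. In Fibroblasts it was at 6.49 and 0.618 with vehicle and 10.2 and 14.0 with digoxin. A UMI of Cd274 was seen in 22 of 203 Fibroblasts. Vehicle replicate 2 gave 31 of the 203 cells at a median of 18866 UMIs, and vehicle replicate 1 gave 78 at 36748.5. The value of 0.618 thus rests on few UMIs. The 7 macrophage markers, none at 0 in all mice, summed to 395 and 128 mean CPM in Fibroblasts with vehicle and 628 and 572 with digoxin, with the same low mouse, and their part in the Cd274 level was not tested. In the cells named Epithelial Cd274 was at 33.0 and 1.57 against 11.9 and 4.57. Without vehicle replicate 2 the log2 difference in the cells named Epithelial was -2.01, while with all mice the groups overlapped. A UMI of Cd274 was seen in 40 of 347 of these cells, and the highest count in a single cell was 68. Single cells can thus weigh heavily in these means, and the part of that cell was not tested. The 4 mast cell markers, none at 0 in all mice, summed to 59.4 and 151 mean CPM in these cells with vehicle and 2391 and 2395 with digoxin (Cpa3 0 to 909, Mcpt4 0 to 1448), and the 7 macrophage markers, none at 0, to 373 and 759 against 924 and 1084. Their part in the Cd274 level was not tested. In T cells Cd274 was at 46.8 and 47.6 with vehicle and 50.2 and 70.5 with digoxin, a difference of 0.33 (adjusted p 0.979), and vehicle replicate 1 was the lowest mouse there. It was 0.57 without digoxin replicate 1 and 0.09 without digoxin replicate 2. These levels were not all above 20 CPM, and those of malignant cells, Fibroblasts and the cells named Epithelial are printed for this pattern after it was seen.

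Irf1, an interferon regulatory factor known to act upstream of Cd274, was also lowest in vehicle replicate 2 in macrophages, and is given here after its values were seen. Irf1 was at 98.5 and 40.6 mean CPM in macrophages with vehicle and 91.5 and 91.0 with digoxin. In Fibroblasts it was at 74.8 and 30.4 against 102 and 50.3, and in the cells named Epithelial at 147 and 62.3 against 85.7 and 85.5. Vehicle replicate 2 was the low mouse in these 3 types. In malignant cells Irf1 was at 53.4 and 37.8 against 38.1 and 48.6, where vehicle replicate 2 and digoxin replicate 1 were both low. In T cells Irf1 was at 107 and 117 against 126 and 147, and in NK cells at 91.1 and 102 against 96.9 and 106, and vehicle replicate 2 was not the lowest mouse in either. Vehicle replicate 2 is also the mouse with low Xist and high Ddx3y. The part of Irf1 or of host sex in the Cd274 level was not tested. Cmtm6, whose product keeps PD-L1 at the cell surface, was at 92.2 and 91.1 with vehicle and 91.6 and 79.5 with digoxin in macrophages, so it did not have the same low mouse. Ifngr1, a receptor chain for interferon-γ, was at 252 and 325 with vehicle and 313 and 262 with digoxin in macrophages, where vehicle replicate 2 was the highest mouse.

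**Figure D4:**
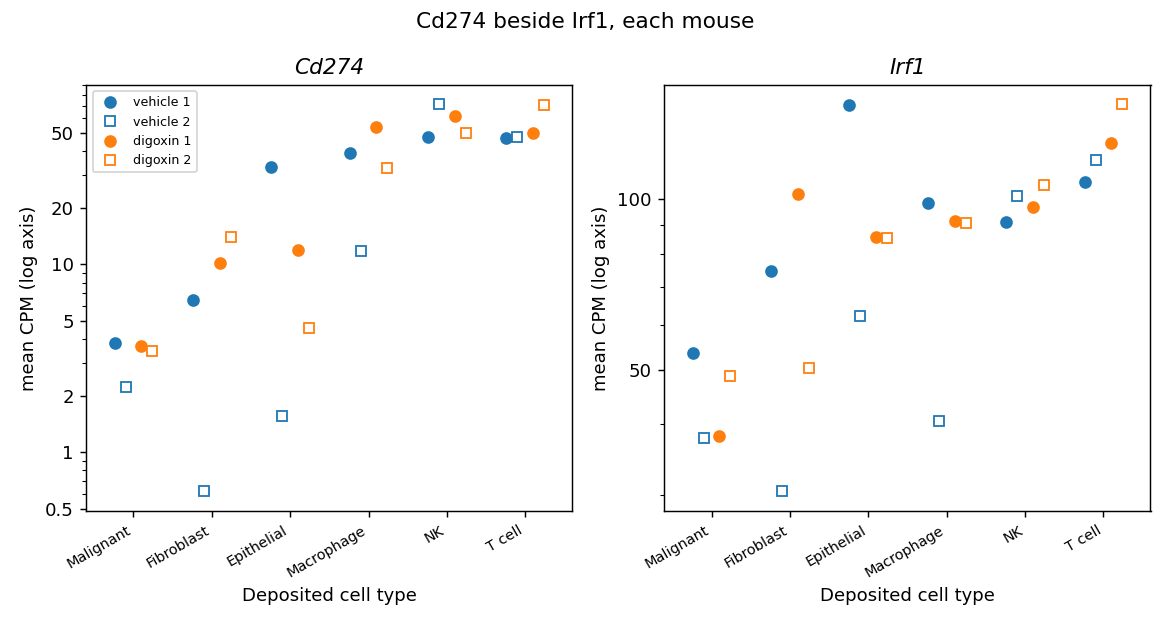
Mean CPM (log axis) of Cd274 and Irf1 in 6 deposited cell types, one point per mouse (blue, vehicle; orange, digoxin; filled circles, replicate 1; open squares, replicate 2). The open blue square, vehicle replicate 2, is the lowest point for both genes in macrophages and Fibroblasts and in the cells named Epithelial, and is not the lowest in T cells or NK cells. The Fibroblast points rest on 31 to 78 cells per mouse.

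Cd274 and Pdcd1lg2 are neighbours on chromosome 19 with a gap of 22.8 kb between them (GRCm38, GENCODE annotation). They differed in where they were found: Cd274 was at 34.5 mean CPM in macrophages and Pdcd1lg2 at 1.58, while in NK cells they were at 57.7 and 37.6. Pdcd1lg2 in T cells was at 17.8 and 22.2 mean CPM with vehicle and 32.8 and 26.7 with digoxin. The digoxin mice were both higher, with a log2 difference of 0.55 (SE 0.276, adjusted p by limma 0.979). Cd80, Cd86 and Tigit are all on chromosome 16, and Pdcd1 and Ctla4 are both on chromosome 1. Ctla4 overlaps the pseudogene Rpl18-ps1 on its own strand, so its UMIs are uncertain where the counting could not split them. Cd274, Pdcd1lg2 and Cd276 each overlap a gene on the other strand, which matters only for counting that ignores the strand.

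Cd80 in T cells reached the mean of 20 CPM set for printing a difference only through the digoxin mice. The group means were 11.6 CPM with vehicle and 28.8 with digoxin, so the size of its difference is not ranked against other genes. Its mean CPM was 5.40 and 17.9 with vehicle and 25.1 and 32.5 with digoxin. The 4 neutrophil markers, none at 0 in all mice, summed to 5.80 and 18.1 mean CPM in T cells with vehicle and 38.5 and 123 with digoxin. Their order of mice was the same, and their part in the Cd80 level was not tested. Each digoxin mouse was above both vehicle mice for Cd80, as for 14.3% of all genes tested in T cells, and the log2 difference was 1.43 (SE 0.470, adjusted p by limma 0.979). By limma it was 2.21 without vehicle replicate 2 and passed (adjusted p 0.000132), and 0.65 without vehicle replicate 1 (adjusted p 0.548). T cells with at least 3 macrophage markers were 15.3% and 27.3% of T cells with vehicle and 27.7% and 33.6% with digoxin, more in both digoxin mice, and without them Cd80 was at 3.58 and 11.01 mean CPM against 15.2 and 21.9. Among T cells it was highest in Treg cells, with 24.6 and 30.3 mean CPM with vehicle and 80.6 and 81.4 with digoxin. In a fit on Treg cells alone, added after the values were seen, the log2 difference was 1.54 (SE 0.357, p 0.000714 before and 0.508 after limma's adjustment). Cd80 was seen in 10 of 35 and 14 of 65 Treg cells of the vehicle mice (28.6% and 21.5%) and in 19 of 40 and 14 of 35 of the digoxin mice (47.5% and 40.0%). The 95% exact binomial intervals, 14.6% to 46.3%, 12.3% to 33.5%, 31.5% to 63.9% and 23.9% to 57.9%, overlapped and cover counting error only. Median depths in these cells were 12845 and 7068 UMIs with vehicle and 11960 and 8151 with digoxin, and after thinning to 3000 UMIs the shares were 2.86% and 4.62% against 15% and 8.57%. The 7 macrophage markers summed to 2976 and 4149 mean CPM in Treg cells with vehicle and 3742 and 3917 with digoxin, with no marker at 0. Treg cells that held at least 3 of these markers were more frequent in the digoxin mice, at 11 of 35 and 21 of 65 with vehicle (31.4% and 32.3%) and 22 of 40 and 20 of 35 with digoxin (55% and 57.1%). Without them Cd80 in Treg cells was at 20.3 and 20.02 with vehicle and 79.7 and 91.3 with digoxin, from 24, 44, 18 and 15 cells, under the minimum of 20 cells in both digoxin mice.

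Lag3 and Havcr2 in Treg cells had the same order of groups as Cd80. Lag3 was at 19.3 and 11.6 mean CPM with vehicle and 41.2 and 39.9 with digoxin, a log2 difference of 1.38 (SE 0.506, adjusted p by limma 0.990), and Havcr2 at 17.8 and 32.4 against 64.7 and 47.1, a difference of 1.17 (SE 0.431, limma adjusted p 0.990) that was 0.75 without vehicle replicate 1. The share of Treg cells with a UMI of Lag3 did not follow its mean: 20% and 7.69% with vehicle and 17.5% and 14.3% with digoxin, from 5 to 7 cells per mouse. Lag3 reached a mean of 20 CPM in Treg cells only through the digoxin mice (15.5 with vehicle, 40.6 with digoxin). Without cells that held at least 3 macrophage markers Lag3 was at 22.2 and 16.3 against 73.6 and 69.9, and Havcr2 at 17.9 and 23.7 against 39.5 and 59.8, from the same 24, 44, 18 and 15 cells. Cd274 in Treg cells was at 62.5 and 47.6 with vehicle and 70.9 and 63.4 with digoxin, a difference of 0.29 (SE 0.332) with the digoxin mice both higher, and 0.10 without vehicle replicate 2. The groups overlapped for Cd86, at 56.2 and 73.6 against 107 and 61.2 (difference 0.33, SE 0.348), and for Pdcd1lg2, at 19.6 and 21.0 against 27.4 and 20.5 (difference 0.22, SE 0.537). Pdcd1, whose Treg levels are given above, had a difference of -0.33 (SE 0.353) that turned to 0.26 without vehicle replicate 2, and that of Cd86 turned to -0.070 without digoxin replicate 1. The limma adjusted p was 0.990 for each of these 4 genes. Of the 8 checkpoint genes tested in Treg cells, 0 passed by limma, edgeR or DESeq2. By limma 3 had an unadjusted p under 0.05, against 4.19% of all genes tested there. For 4 of the 8 both digoxin mice were above both vehicle mice, against 16.5% of all genes. Of all genes tested in Treg cells, 0.0312% passed. Cd86 in T cells was at 35.6 and 87.7 with vehicle and 50.3 and 71.1 with digoxin, a difference of 0.09 (adjusted p by limma 0.996) that turned to -0.54 without vehicle replicate 1 and to -0.15 without digoxin replicate 2. The cells named "Unknown T cell", whose Cd86 levels are given above, are among these T cells.

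Cd276, B7-H3, was found mainly in cells outside the immune lineages. In malignant cells it was at 19.3 and 15.9 mean CPM with vehicle and 16.1 and 14.5 with digoxin. The groups overlapped, and the log2 difference was -0.18 (SE 0.124, adjusted p by limma 1.00), -0.052 without vehicle replicate 1 and -0.32 without vehicle replicate 2. This pair lies below the 20 CPM set for printing a difference and was chosen after its values were seen. A UMI was seen in 53.4% of malignant cells at a median of 52867 UMIs, and in 4.75% after thinning to 3000 UMIs, against 1 of 579 T cells (0.173%) at a median of 7765 UMIs. In the cells named Epithelial it was at 99.1 and 86.3 with vehicle and 81.2 and 56.8 with digoxin, where both digoxin mice were lower (log2 difference -0.44, SE 0.203, limma adjusted p 0.867). It was -0.69 without digoxin replicate 1 and -0.19 without digoxin replicate 2. The share of these cells with a UMI of Cd276 was 60.1% with vehicle and 52.8% with digoxin, averaged over mice. After thinning to 3000 UMIs it was 18.39% and 18.44%, so the thinned share did not follow the mean level. The highest count in a single cell was 67 UMIs. The mast cell and macrophage markers given above for these cells were higher in the digoxin mice, and their part in the Cd276 level was not tested. In Fibroblasts it was at 31.7 and 22.5 against 26.3 and 21.96, a difference of -0.15 (limma adjusted p 0.999). That difference turned to 0.09 without vehicle replicate 1, to 0.27 with the CPM of summed UMIs, to 0.28 with edgeR and to 0.30 with DESeq2. Cd276 was in Osteoclasts at 21.2 and 16.4 against 17.9 and 14.5. It was listed at 0 in Dendritic cells and B cells of all mice. The other 9 checkpoint genes were at or under 3.80 mean CPM in malignant cells of each mouse, with Lag3 at 2.96 to 3.48, Cd86 at 1.98 to 2.70 and Pdcd1 at 0.108 to 0.177. The 7 macrophage markers, none at 0, summed to 547 and 564 mean CPM in malignant cells with vehicle and 418 and 433 with digoxin. In macrophages they summed to 22739, and their part in these low levels was not tested.

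**Figure D5:**
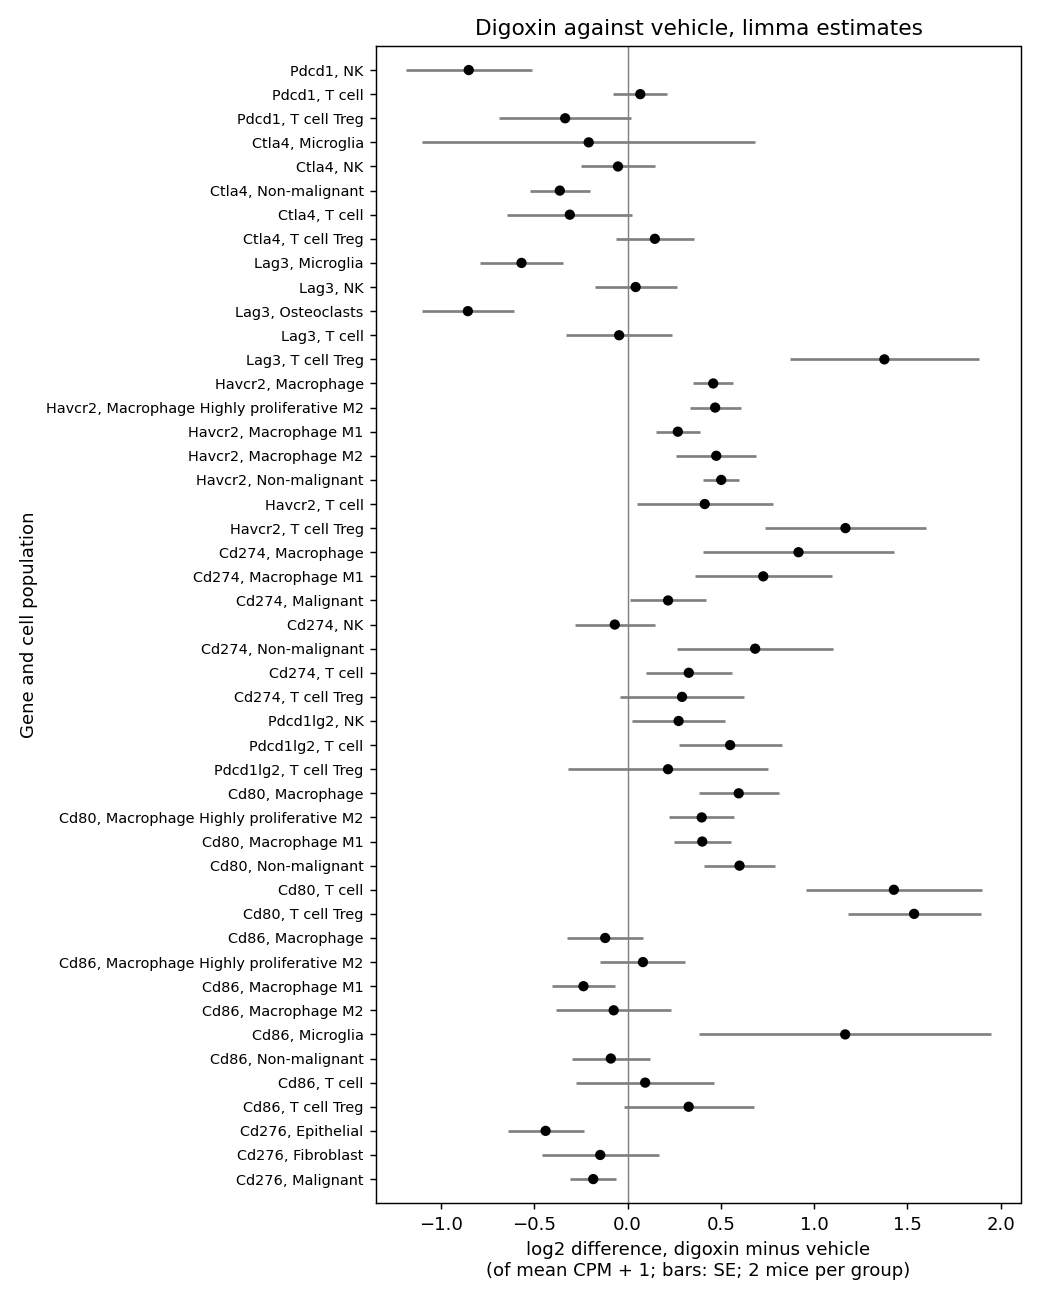
Log2 difference in mean CPM + 1 between digoxin and vehicle (x axis; point, limma estimate; bar, SE; 2 mice per group) for 47 pairs of a checkpoint gene and a cell population (y axis). No point is drawn in red, the colour of an adjusted p under 0.05, and Cd80 in Treg cells (1.54) and in T cells (1.43) is farthest to the right.

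Over 12 populations, 79 tests were made on checkpoint genes, of which 0 passed an adjusted p of 0.05 by limma and 13 had an unadjusted p under 0.05. The populations are nested and share mice, so these are not 13 separate results. Of all genes tested, limma called 0% in malignant cells, in non-malignant cells, in macrophages and their 3 sub-clusters, in T cells, in Fibroblasts and in the cells named Microglia, 0.0765% in NK cells, 0.467% in the cells named Epithelial and 0.0128% in Osteoclasts. An unadjusted p under 0.05 was given to 3.41% of all genes in malignant cells, 3.9% in non-malignant cells, 4.04% in macrophages, 7.73% in M1, 2.28% in M2, 3.94% in Highly proliferative M2, 4.28% in T cells, 4.19% in Treg cells, 6.28% in NK cells, 5.77% in the cells named Epithelial, 2.97% in Fibroblasts, 4.78% in the cells named Microglia and 6.38% in Osteoclasts. Among the checkpoint genes tested that number was 3 of 10 in non-malignant cells, 2 of 9 in macrophages and 1 or 0 in the other 10 populations. The 3 in non-malignant cells were Havcr2 and Cd80, higher with digoxin, and Lag3, lower with digoxin. On recovered UMIs edgeR called 0 checkpoint genes in each population and DESeq2 called 1, Havcr2 in non-malignant cells. The values of both digoxin mice were above both vehicle mice for 3 of 10 checkpoint genes in malignant cells (12.8% of all genes), 2 of 10 in non-malignant cells (12.4%), 2 of 9 in M1 (15.3%), 2 of 8 in M2 (15%), 3 of 7 in Highly proliferative M2 (17.4%), 3 of 8 in T cells (14.3%), 1 of 8 in NK cells (19.1%), 1 of 2 in Fibroblasts (10.1%) and 1 of 3 in Osteoclasts (21.6%). It was 0 of 3 in the cells named Microglia (16.7%) and 0 of 2 in those named Epithelial (17.8%). They were below both for 1 of 10 in malignant cells (16.5%), 3 of 10 in non-malignant cells (20.6%), 1 of 9 in M1 (24%), 1 of 8 in NK cells (16.9%), 1 of 3 in the cells named Microglia (16.2%), 1 of 3 in Osteoclasts (15.8%) and 1 of 2 in those named Epithelial (16.3%). It was 0 in T cells (19%), Treg cells (16.1%), M2 (11.7%), Highly proliferative M2 (12.6%) and Fibroblasts (19.4%). These counts of 10 or fewer genes, in populations that share mice, are a description. The median log2 difference over the checkpoint genes tested was 0.21 in T cells, where 8 were tested, against -0.02 over all genes, 0.09 in macrophages, where 9 were tested, against -0.01, and 0.01 in malignant cells, where 10 were tested, against -0.01. It was -0.09 against -0.02 in non-malignant cells, 0.22 against -0.02 in M1, -0.05 against 0.02 in M2, 0.27 against 0.02 in Highly proliferative M2, 0.15 against 0.02 in NK cells and 0.31 against -0.0015 in Treg cells. With 2 or 3 genes tested it was -0.29 against 0.0030 in the cells named Epithelial, 0.87 against -0.04 in Fibroblasts, -0.21 against 0.01 in the cells named Microglia and -0.20 against 0.03 in Osteoclasts. The digoxin effect was also compared between non-malignant and malignant cells, with each mouse as its own block. Of 10 checkpoint genes 0 passed, against 0% of 14445 genes, and 1 had an unadjusted p under 0.05, against 3.99% of all genes. That gene was Havcr2, with a log2 effect of 0.50 in non-malignant and 0.15 in malignant cells (difference 0.35, SE 0.127, limma adjusted p 0.970). Havcr2 was at 0.917 to 1.20 mean CPM in malignant cells of the 4 mice, close to the 1 CPM added before the log. A low gene shows a smaller difference on that scale, so these effects are not on an equal footing.

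Among other genes of the checkpoint pathways 1 passed in the populations tested. In T cells, macrophages and malignant cells 0 genes passed among the other inhibitory receptors and ligands, the costimulatory receptors and ligands and the regulators of checkpoint genes by limma. An unadjusted p under 0.05 was given to 1 of 8 costimulatory receptors in T cells (4.28% of all genes). In macrophages it was given to 2 of 13 inhibitory ligands, 1 of 7 costimulatory receptors and 1 of 15 regulators (4.04% of all genes). In malignant cells it was given to 1 of 15 inhibitory ligands and 1 of 7 costimulatory receptors (3.41%). For the regulators that number was 5 of 15 in the cells named Epithelial (5.77% of all genes) and 4 of 16 in NK cells (6.28%). Of the 15 in the cells named Epithelial, 8 were higher in both digoxin mice (17.8% of all genes) and 3 were lower in both (16.3%). Of the 16 in NK cells 4 were higher (19.1%) and 2 lower (16.9%). An unadjusted p under 0.05 was also given to 2 of 11 inhibitory ligands in the cells named Epithelial and to 2 of 10 inhibitory receptors in NK cells. Of those 11 ligands 2 were higher in both digoxin mice and 4 were lower in both. In non-malignant cells such a p was given to 2 of 6 costimulatory and 2 of 13 inhibitory ligands (3.9% of all genes). In M2 cells it was given to 2 of 13 inhibitory ligands (2.28%). Counts for the other lists and populations are not all printed. The genes named here are among the 2 with the highest mean CPM in each list, a rule for choosing names and not an order of transcript number. Icos and Tnfrsf18 are costimulatory receptors of activated and regulatory T cells, and in T cells there were 456 and 758 mean CPM of Icos with vehicle and 567 and 469 with digoxin, and 421 and 727 against 546 and 472 for Tnfrsf18. Both were highest in vehicle replicate 2, as was Ctla4. Of the inhibitory receptors, in T cells Vsir (VISTA) was at 91.1 and 119.6 against 99.9 and 73.0 and Cd160 at 103 and 65.0 against 87.1 and 94.4. In macrophages the receptor Sirpa was at 482 and 348 with vehicle and 455 and 339 with digoxin, and Vsir at 195 and 195 against 201 and 159. The ligand Cd47, which binds SIRPα, was at 362 and 349 against 362 and 389 in macrophages, and Lgals3, which encodes the LAG-3 ligand galectin-3, at 1066 and 911 against 1326 and 1125, with both digoxin mice higher (log2 difference 0.31, SE 0.136, limma adjusted p 1.00). The costimulatory ligand Tnfsf9 (4-1BB ligand) was in macrophages at 61.2 and 41.0 against 57.9 and 63.9. In malignant cells the inhibitory ligand genes Lgals3 and Hmgb1 were at 434 and 491 against 509 and 488, and at 471 and 427 against 463 and 514.

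The 1 gene that passed was Lgals3 in the cells named Epithelial. It was at 58.8 and 78.4 mean CPM with vehicle and 228 and 133.8 with digoxin. The digoxin mice were both higher, and Lgals3 rose with a log2 difference of 1.35 (SE 0.242, adjusted p by limma 0.0449). On recovered UMIs the adjusted p was 0.709 with edgeR and 0.999 with DESeq2. It was 0.457 without digoxin replicate 1, 0.125 without digoxin replicate 2 and 0.0646 without cells marked as doublets. The summed mast cell markers of these cells, 59.4 and 151 with vehicle and 2391 and 2395 with digoxin, and the summed macrophage markers, 373 and 759 against 924 and 1084, moved in the same direction, and their part in the Lgals3 level was not tested.

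The genes whose levels were most like those of a checkpoint gene were found over 32 profiles, the 8 cell types with at least 20 cells in each mouse in 4 mice, among 9104 genes. The profiles of one mouse share a library and those of one type share their identity, so these correlations describe cell type patterns. Ctla4 was most like Icos (Pearson r 0.995), Cd2 and Tnfrsf18, and Pdcd1 most like Icos (0.973), Cd3g and Ctla4, all T cell genes. Cd86 and Cd80 were most like Plbd1 (0.921) and Naaa (0.913), Cd274 most like Nabp1 (0.894), and Havcr2 most like Rab11fip1 (0.880). Lag3 was most like Galnt12 (0.922), Pdcd1lg2 most like Cd226 (0.965), a receptor of NK and T cells, Tigit most like Krt83 (0.939), and Cd276 most like Uaca (0.963).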

How the data were processed

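Single-cell libraries from 2 vehicle and 2 digoxin mice were analysed from the deposited tables of malignant and non-malignant cells. The submitters' processing notes name Cell Ranger 3.0.2, Seurat 3.0.2 and the build mm10. The authors deposited values that are the natural log of 1 plus UMIs per 10000, as the values themselves show, and the deposited UMI count per cell, from which whole UMI counts were recovered for 100% of values within 0.01. Columns belonging to no sample numbered 0. Cells of 1 vehicle library bear a 3 in their names, whereas the authors' cell annotation gives them as vehicle replicate 2. A further part of the genotype and 1 gene of the regulator list are not reported here.

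CPM was computed per cell and averaged per mouse and deposited cell type. log2(mean CPM + 1), on which low genes show smaller differences, was fitted with limma 3.58.1 (variance trend, filterByExpr, Benjamini-Hochberg adjustment at 0.05) over all genes of each population with at least 20 cells in every mouse. edgeR 4.0.16 and DESeq2 1.42.0 were run on recovered UMIs as alternatives. A fit that leaves out a mouse assumes that the lone mouse varies like the other group. Nothing in the labels says that the mice were housed or handled apart, so p-values measure the spread between these samples only. Exact permutation of 2 against 2 mice cannot give a p below 0.333. Scrublet in scanpy 1.11.5, at an expected share of 0.06, marked 1381 of 31611 cells as doublets, including 0.332% to 0.956% of non-malignant cells per mouse, and they were kept. It found few among non-malignant cells. The fits were also run on simulated counts, with the CPM of summed counts in place of the mean over cells. The outcome of that run is not given here and is not used for any result.

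All 10 genes are named. A log2 difference is printed for each gene and population with a mean of at least 20 CPM, and for exceptions named in the text. From each other list the 2 highest genes in T cells, macrophages and malignant cells, of which some are printed, and all that passed were named. The genes, lists and tests were chosen with earlier results of these data known.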

Additional observations from a re-analysis of the deposited data

Results flagged for a closer look

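The direction of the Lag3 difference was not the same in all cell populations. Both digoxin mice were lower than both vehicle mice in the cells named Microglia (log2 difference -0.57, which was -0.84 without vehicle replicate 1 and -0.29 without vehicle replicate 2) and in Osteoclasts (-0.86), and both were higher in Treg cells (1.38). None of these passed limma's adjusted p of 0.05, and the difference between the populations was not tested. The Treg fit was added after the values were seen. Lag3 reached a mean of 20 CPM in Treg cells only through the digoxin mice (15.5 with vehicle, 40.6 with digoxin). A UMI of Lag3 was seen in 24 of 175 Treg cells, and the share of such cells did not follow the mean level. Of all genes tested, 16.2% were lower in both digoxin mice in the cells named Microglia, 15.8% were lower in Osteoclasts and 16.5% were higher in Treg cells. Lag3 was also lower in both digoxin mice over all non-malignant cells, at 11.7 and 12.2 mean CPM against 9.52 and 7.25. That log2 difference was -0.47 (adjusted p by limma 0.975), where cell mix and level per cell cannot be told apart. In malignant cells it was at 3.23 and 3.48 against 2.96 and 3.16. Of all genes 20.6% and 16.5% were lower in these 2 populations.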

How the results depend on the processing

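The 2 mice per group limit every comparison. Vehicle replicate 2 differed from the other mice in Xist and Ddx3y, genes that mark host sex, in Treg share and in Irf1 of macrophages. Of 612 alternative values of the 48 log2 differences, 553 kept direction and side of the threshold, 44 turned direction and 7 newly passed; the others were Lgals3 in the cells named Epithelial, which lost its call. The cause was not tested. Leaving out single replicates gave ranges that crossed 0 for Cd274 in malignant cells (-0.073 to 0.51) and NK cells (-0.35 to 0.21), for Pdcd1lg2 in NK cells (-0.065 to 0.61) and for Pdcd1 in Treg cells (-0.92 to 0.26). For Cd86 they were -0.40 to 0.22 in non-malignant cells, -0.44 to 0.20 in macrophages, -0.50 to 0.028 in M1, -0.64 to 0.49 in M2, -0.32 to 0.49 in Highly proliferative M2, -0.54 to 0.73 in T cells, -0.070 to 0.73 in Treg cells and -0.14 to 2.47 in the cells named Microglia. For Ctla4 they were -0.998 to 0.38 in T cells, -0.43 to 0.33 in NK cells, -1.76 to 1.35 in the cells named Microglia and -0.17 to 0.46 in Treg cells. For Lag3 they were -0.43 to 0.34 in T cells and -0.19 to 0.28 in NK cells, for Havcr2 -0.19 to 1.01 in T cells, and for Cd276 -0.38 to 0.091 in Fibroblasts. With the CPM of summed UMIs, edgeR and DESeq2, in that order, the difference was 0.081, 0.0074 and 0.029 for Ctla4 and -0.15, -0.16 and -0.16 for Lag3 in NK cells, and 0.27, 0.28 and 0.30 for Cd276 in Fibroblasts. With edgeR and DESeq2 it was -0.037 and -0.052 for Cd86 in Highly proliferative M2 cells and -0.028 and -0.055 in T cells. The CPM of summed UMIs gave 0.054 for Ctla4 in the cells named Microglia. Without cells holding macrophage markers Lag3 was at 0.095 in T cells and -0.083 in NK cells. These alternatives were also chosen after seeing the data: in Treg cells alone Pdcd1 was at -0.33, Ctla4 at 0.15 and Lag3 at 1.38, and with sub-clusters weighted equally Pdcd1 was at -0.023. Lgals3 in the cells named Epithelial had adjusted p-values of 0.0704 with a pseudocount of 0.1, 0.183 with no filter and 0.861 with the CPM of summed UMIs.

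The number of checkpoint genes past the threshold moved from 0 to 1 in non-malignant cells with DESeq2. Leaving out a single replicate gave 0 to 1 in macrophages, M2 cells, Highly proliferative M2 cells, T cells, NK cells, Fibroblasts and the cells named Epithelial, and 0 in the other populations and for the comparison of non-malignant with malignant cells. With the replicate number as a block it was 1 in T cells (Cd80, adjusted p 0.0174) and 1 in Treg cells (Cd80, adjusted p 0.0474), and no other count moved. Same-numbered mice share only a number: their deviations correlated at -0.520 in malignant cells, 0.107 in non-malignant cells, -0.0211 in macrophages, 0.0893 in T cells and -0.00395 in NK cells. Over all genes, 0 to 44 were called in malignant cells, 0 to 30 in non-malignant cells, 0 to 132 in macrophages, 0 to 198 in T cells, 0 to 142 in NK cells, 0 to 341 in the cells named Epithelial, 0 to 224 in M1, 0 to 50 in M2, 0 to 256 in Highly proliferative M2, 0 to 462 in Fibroblasts, 0 to 72 in the cells named Microglia, 0 to 6 in Osteoclasts, 0 to 22 in Treg cells and 0 to 219 for the comparison of non-malignant with malignant cells. Thinning to 3000 UMIs moved 8 of 47 differences in the share of cells with a UMI by more than the spread between mice.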
